A study of Mus musculus with 2 samples.

Results

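The transcripts of 5 genes were followed through 4 sort gates of the Fucci cell cycle reporter: Gmnn and Cdt1, whose protein fragments make up the reporter, and Fbxo5, Skp2 and Fzr1, whose proteins act on the destruction of geminin and Cdt1. These 5 were chosen by name, for what their proteins do, out of 53272 genes that could be read in the count tables. The cells came from the bone marrow of C57BL/6 mice aged 8 weeks that carried the reporter, in work on the expansion of quiescent stem cells of the blood. Each of the gates mKO2high, mKO2low, mKO2neg and mAG+ held 48 cells, 192 in all. The mKO2high and mKO2low cells formed 1 library, the mKO2neg and mAG+ cells the other. All gates carry the reporter, and the labels name neither the promoter that drives it nor how many mice were used. Each gate is therefore 1 sample with no replicate. Its cells do not stand in for replicates, so no difference below carries a test.

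Fucci reads the cell cycle at the level of protein. Cdt1 loads the MCM helicase onto replication origins in G1, and geminin, the product of Gmnn, binds Cdt1 and blocks a second round of loading. The 2 proteins are destroyed at opposite times: the ubiquitin ligase SCF with its substrate receptor Skp2, and CRL4 with Cdt2, remove Cdt1 in S phase, while the anaphase-promoting complex (APC/C) with its coactivator Cdh1, the product of Fzr1, removes geminin in late mitosis and G1. Emi1, the product of Fbxo5, inhibits the APC/C and so lets geminin accumulate. The orange protein mKO2 fused to part of Cdt1 thus marks G0 and G1, and the green protein mAG fused to part of geminin marks S, G2 and M. Whether the transcripts of these genes follow the same opposite course as the fusion proteins is what the gates allow to be compared. Reads from the reporter constructs themselves were not analysed here.

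The row labels of the deposited tables were out of step with their counts by 1 gene, so each gene was read from the row of the gene just before it in the order of GENCODE M21. Read in this way, 92.6% of the counts lay in protein-coding genes, against 51.9% by the row with a gene's own ID. Of 76 genes of ribosomal proteins, 71 then held at least 1000 counts, against 2 by their own ID. On chromosomes 15 to 19 this held for 13 of 16 such genes and elsewhere for 58 of 60, so a gene on those chromosomes, among them Skp2, is read with somewhat less certainty. The mKO2high cells held 934036 counts, the mKO2low cells 1703263, the mKO2neg cells 1608630 and the mAG+ cells 2791584. Levels are given in CPM, the counts of a gene per 1000000 counts of the gate or cell. Median counts per cell were 14510, 26852, 24633 and 45177 in the same order, and single cells held between 0 and 210516. Of 10 markers of blood stem and progenitor cells, 9 had counts in mKO2high and 10 in each other gate. They summed to 1889, 1728, 1547 and 1330 CPM from mKO2high to mAG+. Kit, Ly6a and Procr were counted in at least 25 of 48 cells of each gate. Slamf1 and Flt3 were counted in at most 15 and Cd48 in at most 4. Ly6a was at 400 CPM in mKO2high and 127 CPM in mAG+, and Procr at 315 and 56.6 CPM. Kit was at 173 and 205 CPM in these 2 gates. Markers of T cells, macrophages, and stroma and endothelium summed to at most 14.1 CPM in any gate. The erythroid markers summed to between 55.8 and 109 CPM, the B cell markers to between 71.5 and 113 CPM, of which Cd79b made up 70.9 to 98.0 CPM, and the neutrophil markers to 65.3, 58.7, 93.2 and 192 CPM from mKO2high to mAG+ with Ly6g at 0. The megakaryocyte markers Pf4 and Itga2b summed to 281, 99.2, 74.6 and 64.8 CPM in that order. Their part in the differences below was not tested.

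Gmnn, on chromosome 13 from 24751845 to 24761923 on the minus strand (GRCm38), was lowest in mKO2high and highest in mAG+, while the order of the 2 middle gates rested on 1 cell. The mKO2high cells held 17 Gmnn counts, the mKO2low cells 91, the mKO2neg cells 137 and the mAG+ cells 587. Its level was 18.2 CPM for mKO2high (exact Poisson 95% interval 10.6 to 29.1), 53.4 CPM for mKO2low (43.0 to 65.6), 85.2 CPM for mKO2neg (71.5 to 101) and 210 CPM for mAG+ (194 to 228). No 2 of these intervals overlap, but with the deepest cell of each gate left out, an alternative chosen after seeing the data, mKO2neg was at 35.0 CPM (25.9 to 46.3) and mKO2low at 57.4 CPM (46.2 to 70.4). Since the protocol as labelled names no molecular identifiers, reads are not known to be independent molecules, and all intervals here cover counting error only. Within the library of mAG+ and mKO2neg, Gmnn was 2.47-fold higher in mAG+ (log2 ratio 1.30, 95% interval 1.03 to 1.58). A single mKO2neg cell, the deepest of its gate with 210516 counts, held 88 of the 137 Gmnn counts there, and with the deepest cell of both gates left out the log2 ratio was 2.44. Within the other library Gmnn was 2.94-fold higher in mKO2low than in mKO2high (log2 ratio 1.52, 0.80 to 2.39). In that comparison 12 of the 17 counts of mKO2high and 37 of the 91 of mKO2low came from 1 cell each, and without these the log2 ratio was 2.41.

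A summed level cannot tell fewer cells with a transcript from less of it per cell, so the cells were also counted. Gmnn had a count in 39 of 48 mAG+ cells (81.2%, exact 95% interval 67.4 to 91.1), against 10 of 48 mKO2neg cells (20.8%, 10.5 to 35.0). It had a count in 12 of 48 mKO2low cells (exact 95% interval 13.6 to 39.6%), against 5 of 48 mKO2high cells (10.4%, 3.47 to 22.7). The level in mAG+ cells had a median of 134 CPM and the median cell of each other gate was at 0. Among cells with at least 5000 counts the highest reached 649 CPM for mAG+, 418 for mKO2neg, 541 for mKO2low and 367 for mKO2high, so the ranges overlapped. A value of 2024 CPM in mAG+ was 1 count in a cell of 494 counts. Depth differed between gates, so each cell was also thinned to 5000 counts, which left out 9 mKO2high, 0 mKO2low, 5 mKO2neg and 3 mAG+ cells. At this equal depth Gmnn had a count in 23 of 45 mAG+ cells (51.1%, 35.8 to 66.3), against 5 of 43 mKO2neg cells (11.6%, 3.89 to 25.1), and the log2 ratio of mAG+ over mKO2neg was 2.49, on 40 counts against 6. The shares in mKO2low and mKO2high were then 8.33% of 48 cells (2.32 to 19.98) and 5.13% of 39 cells (0.627 to 17.3), a difference not detectable at this depth.

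Cdt1, on chromosome 8 from 122568015 to 122573554 on the plus strand, did not run opposite to Gmnn: its summed level too was highest in mAG+, the gate set by the geminin reporter. Cdt1 counts numbered 4 for mKO2high, 60 for mKO2low, 59 for mKO2neg and 241 for mAG+. The levels were 4.28 CPM for mKO2high (1.17 to 10.96), 35.2 CPM for mKO2low (26.9 to 45.3), 36.7 CPM for mKO2neg (27.9 to 47.3) and 86.3 CPM for mAG+ (75.8 to 97.9). The 2 middle gates overlapped, and mKO2high, the gate labelled as brightest for the Cdt1 reporter, stood below and mAG+ above both in summed level. Cdt1 was 2.35-fold higher in mAG+ than in mKO2neg (log2 ratio 1.22, 0.82 to 1.67) and 8.23-fold higher in mKO2low than in mKO2high (log2 ratio 2.84, 1.61 to 4.96). The second value rests on 4 counts in mKO2high and was 1.46 on the log2 scale with equal weight for each cell. Cells with a count numbered 21 of 48 in mAG+ (43.8%, 29.5 to 58.8), against 7 of 48 in mKO2neg (14.6%, 6.07 to 27.8), and 8 of 48 in mKO2low (16.7%, 7.48 to 30.2), against 3 of 48 in mKO2high (6.25%, 1.31 to 17.2). At equal depth the shares were 17.8% in mAG+ (8.00 to 32.1) and 6.98% in mKO2neg (1.46 to 19.1), and 14.6% in mKO2low (6.07 to 27.8) and 5.13% in mKO2high (0.627 to 17.3), so that all 4 intervals overlapped. The log2 ratio of mAG+ over mKO2neg was then 0.75, under 2-fold, on 13 counts against 7.

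**Figure D1:**
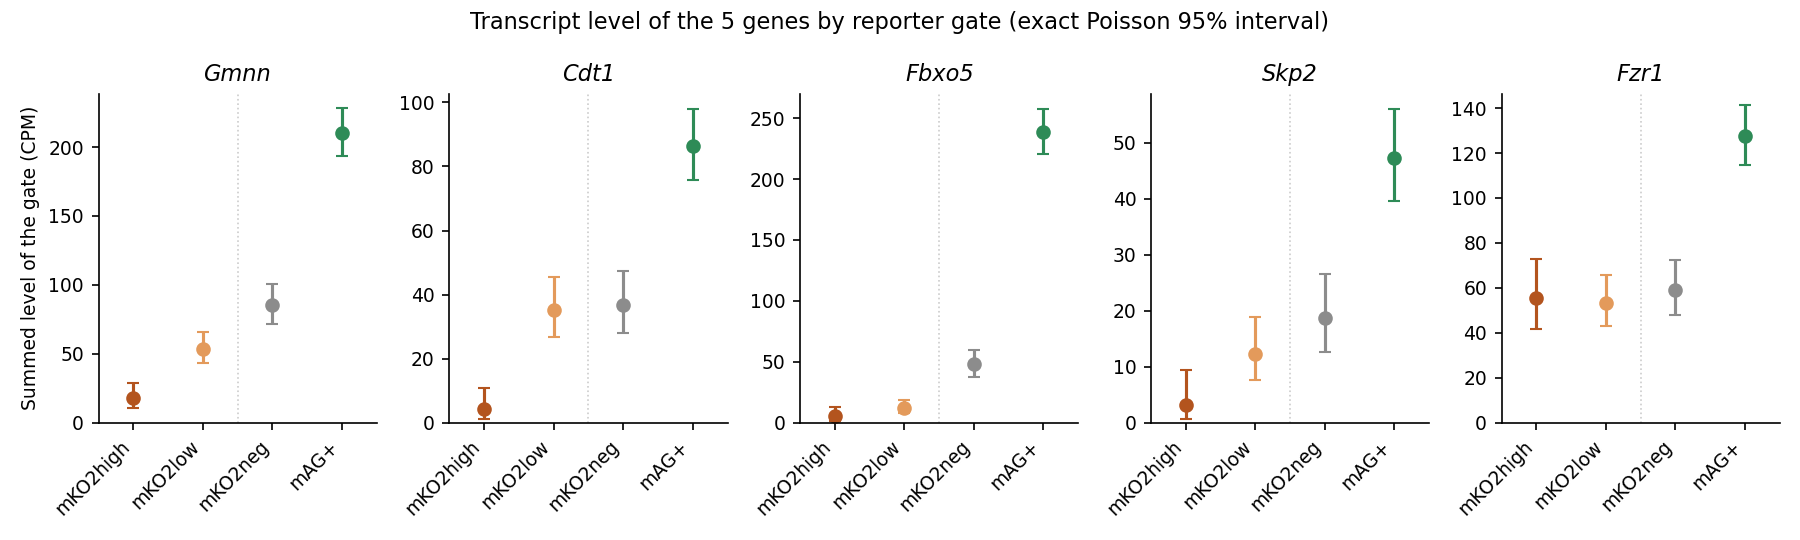
Summed level of each gene in CPM (y axis, linear from 0, scaled per gene) in the 4 gates (x axis), with exact Poisson 95% intervals that cover counting error only; the dotted line separates the 2 libraries. All 5 genes were highest in mAG+, and Cdt1, at 86.3 CPM in mAG+ and 4.28 CPM in mKO2high, ran in the same direction as Gmnn, at 210 CPM in mAG+ and 18.2 CPM in mKO2high.

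Fbxo5, on chromosome 10 from 5799160 to 5805600 on the minus strand, was 4.98-fold higher in mAG+ than in mKO2neg, the largest of the 5 ratios with all counts, whereas at equal depth Fzr1 stood at 2.71 on the log2 scale and Fbxo5 at 2.62. Its counts were 5 for mKO2high, 21 for mKO2low, 77 for mKO2neg and 666 for mAG+, or 5.35 CPM (1.74 to 12.5), 12.3 CPM (7.63 to 18.8), 47.9 CPM (37.8 to 59.8) and 239 CPM (221 to 257) in this order of gates. The 2 lowest gates, mKO2high and mKO2low, overlapped, and with the deepest cells left out mKO2neg, at 12.2 CPM (7.08 to 19.5), overlapped them too. The log2 ratio of mAG+ over mKO2neg was 2.31 (1.98 to 2.68). The same deep mKO2neg cell held 60 of the 77 counts of its gate, and with the deepest cells left out the log2 ratio was 4.26. For mKO2low over mKO2high the log2 ratio was 1.10 with an interval from -0.24 to 2.97, so that a difference was not detectable at this depth. A count was present in 40 of 48 mAG+ cells (83.3%, 69.8 to 92.5) and in 8 of 48 mKO2neg cells (16.7%, 7.48 to 30.2). At equal depth these shares were 48.9% in mAG+ (33.7 to 64.2) and 9.30% in mKO2neg (2.59 to 22.1). The median mAG+ cell had 194 CPM, with a range from 0 to 1012, against a median of 0 and a highest cell of 285 CPM in mKO2neg.

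Because all 5 genes were at least 2-fold higher in mAG+ than in mKO2neg, the promoters were searched, on both strands, for letters of 3 elements known from cell cycle genes: E2F sites (TTTGGCGC, TTTGCCGC, TTTCGCGC or TTTCCCGC), the cell cycle genes homology region or CHR (TTTGAA), and the CCAAT box (CCAAT). Windows ran from 250 bases before to 50 after each RefSeq gene start (GRCm38.p6), and 4 of the 5 genes matched the table, all but Gmnn. Of 32851 promoters of all genes, 2.26% held an E2F match, 17.9% a CHR match, 37.4% a CCAAT match and 3.37% at least 3 CCAAT matches. Fbxo5 held 3 CCAAT matches on the strand opposite to the gene, at -93 to -89, -55 to -51 and -25 to -21 from the start, and a CHR match on that strand at 4 to 9. Cdt1 held an E2F match at 33 to 40. Skp2 held a pair of CHR matches at -63 to -58 and -55 to -50 and a CCAAT match before 1 of its 2 annotated starts and no match at the other, and Fzr1 held 1 CCAAT match on the strand opposite to the gene, at -79 to -75. A match is only a match of letters and shows no binding. The Fbxo5 promoter is shown because it carries most matches, with short stretches around the other CHR and E2F matches, in the direction of the gene and with the matched letters in capitals.
Fbxo5 promoter, chr10:5805466-5805715, minus strand: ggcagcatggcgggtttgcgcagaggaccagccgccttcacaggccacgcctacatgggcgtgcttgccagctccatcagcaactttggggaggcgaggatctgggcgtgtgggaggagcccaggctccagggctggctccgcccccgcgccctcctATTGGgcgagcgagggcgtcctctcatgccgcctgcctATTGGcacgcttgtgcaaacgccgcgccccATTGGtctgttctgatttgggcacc
Fbxo5 CHR match, chr10:5805444-5805468, minus strand: accaaaTTCAAAgattttaaaagta
Skp2 CHR matches, chr15:9155470-9155494, minus strand: tgctgaTTTGAAtaTTTGAAgtcat
Cdt1 E2F match, chr8:122568040-122568064, plus strand: ctaccttTTTGGCGCcatggcgcaa

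Skp2, on chromosome 15 from 9111985 to 9155425 on the minus strand, was sparse in every gate, with 3 counts for mKO2high, 21 for mKO2low, 30 for mKO2neg and 132 for mAG+. The levels were 3.21 CPM for mKO2high (0.662 to 9.39), 12.3 CPM for mKO2low (7.63 to 18.8), 18.6 CPM for mKO2neg (12.6 to 26.6) and 47.3 CPM for mAG+ (39.6 to 56.1). Neighbouring gates up to mKO2neg overlapped, and mAG+ stood above all others. Skp2 was 2.54-fold higher in mAG+ than in mKO2neg (log2 ratio 1.32, 0.76 to 1.97), with a count in 21 of 48 cells of mAG+ and 7 of 48 of mKO2neg. Between mKO2low and mKO2high the ratio was 3.84 (log2 ratio 1.72, 0.20 to 4.33), but all 3 counts of mKO2high lay in 1 cell and 13 of the 21 of mKO2low in another. At equal depth 17.8% of mAG+ cells (8.00 to 32.1) and 2.33% of mKO2neg cells (0.0589 to 12.3) had a count, with 10 counts in all in mAG+ and 1 in mKO2neg. The end of the gene lies within 3 kb of the end of Nadk2 on the other strand, without shared exon bases.

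Fzr1, on chromosome 10 from 81366222 to 81378516 on the minus strand, differed little over 3 gates with all counts and was higher in mAG+. Its counts came to 52 for mKO2high, 91 for mKO2low, 95 for mKO2neg and 356 for mAG+. The 3 lower gates were at 55.7 CPM (41.6 to 73.0) in mKO2high, 53.4 CPM (43.0 to 65.6) in mKO2low and 59.1 CPM (47.8 to 72.2) in mKO2neg, all overlapping, and mAG+ was at 128 CPM (115 to 141). The log2 ratio of mKO2low over mKO2high was -0.06 (-0.57 to 0.46), an interval that by counting error alone does not reach 2-fold in either direction. In mAG+ over mKO2neg Fzr1 was 2.16-fold higher (log2 ratio 1.10, 0.78 to 1.45). A count was present in 33 of 48 mAG+ cells (68.8%, 53.7 to 81.3), against 16 of 48 mKO2neg cells (33.3%, 20.4 to 48.4), and 16 of 48 mKO2low cells, against 9 of 48 mKO2high cells (18.8%, 8.95 to 32.6). At equal depth the share was 44.4% in mAG+ (29.6 to 60.0), against 6.98% in mKO2neg (1.46 to 19.1), and the log2 ratio was 2.71, on 33 counts against 4. The mKO2low and mKO2high cells then had 13 and 12 counts. For mKO2neg over mKO2low, from different libraries, the log2 ratio at equal depth was -1.35, past 2-fold, on 4 counts against 13. Fzr1 shares 4 of its 4488 exon bases with Mfsd12 on the other strand, where both genes end, and with strand use not given in the sources used here, reads at that point cannot be told apart.

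**Figure D2:**
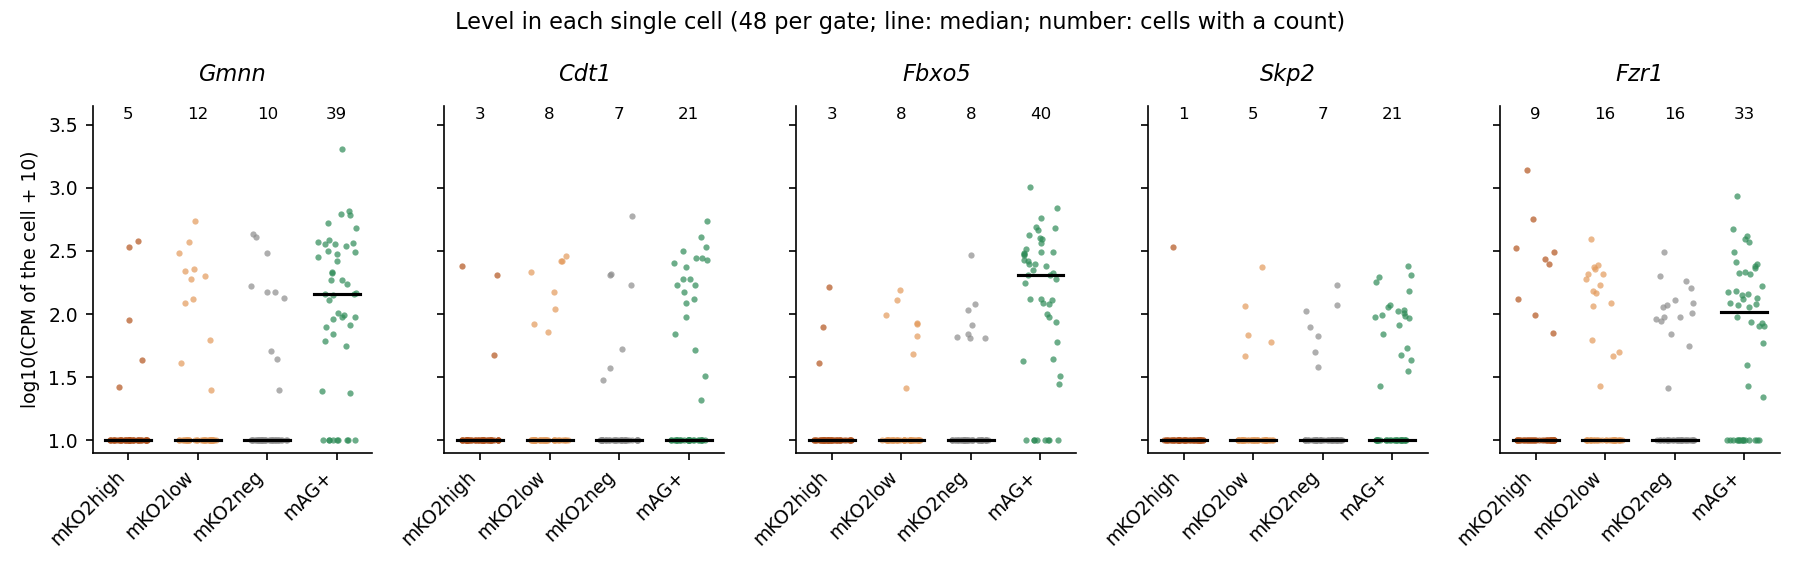
Level of each gene in each of the 48 cells of a gate, as log10(CPM + 10) (y axis), by gate (x axis); the line is the median and the number above is the count of cells with at least 1 count. The medians left 0 only in mAG+ and there only for Gmnn, Fbxo5 and Fzr1, and Gmnn was counted in 39 mAG+ cells, against 10 mKO2neg cells.

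The 5 genes were then set against all genes. Called here means at least 2-fold, in genes with at least 10 counts over both gates. In mAG+ over mKO2neg, all 5 genes were at least 2-fold higher, as were 21.2% of all genes tested, with 14.6% at least 2-fold lower. The intervals of Cdt1, Skp2 and Fzr1 in this comparison reach below 2-fold, and at equal depth the log2 ratio of Cdt1 was 0.75. For mKO2low over mKO2high, 4 of 5 were at least 2-fold higher, all but Fzr1, with a background of 19.6% higher and 15% lower. The intervals of Gmnn, Fbxo5 and Skp2 there reach below 2-fold. Cdt1, Fbxo5 and Skp2 had 4, 5 and 3 counts in mKO2high and reached 10 counts only through mKO2low. The number past 2-fold is therefore no support for a difference. The median log2 ratio of all genes was 0.06 in the first comparison and 0.05 in the second. Gates of different libraries can also be set side by side, although gate and library then cannot be told apart. In mKO2neg over mKO2low, 1 of 5 was at least 2-fold higher, where 15.3% of all genes were: Fbxo5, at a log2 ratio of 1.91 (1.25 to 2.73). That value rested on the deepest mKO2neg cell, and without the deepest cells it was -0.12, on 17 counts against 21. Gmnn was at 0.67 (0.28 to 1.07) and at -0.70 without the deepest cells, Cdt1 at 0.06 (-0.49 to 0.60), Skp2 at 0.57 (-0.26 to 1.47) and Fzr1 at 0.14 (-0.29 to 0.58). Between the ends of the reporter order, mAG+ over mKO2high, all 5 were at least 2-fold higher, as were 26.2% of all genes. Cdt1, Fbxo5 and Skp2 reached 10 counts there only through mAG+, so this number too is no support for a difference. The log2 ratios were 5.34 (4.25 to 7.11) for Fbxo5, 4.17 (2.96 to 6.22) for Cdt1, 3.67 (2.30 to 6.18) for Skp2, 3.49 (2.84 to 4.32) for Gmnn and 1.19 (0.77 to 1.64) for Fzr1, with a median of all genes of 0.12. This comparison shares its mAG+ cells with the first and its mKO2high cells with the second.

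More of the 5 genes were counted per cell in mAG+ than in the other gates. At least 3 of the 5 genes had a count in 34 of 48 mAG+ cells, against 6 of 48 mKO2neg cells, and in 3 of 48 mKO2low cells, against 0 of 48 mKO2high cells. At equal depth these numbers were 11 of 45 mAG+, 0 of 43 mKO2neg, 1 of 48 mKO2low and 0 of 39 mKO2high cells. All 5 were counted in 9 mAG+, 2 mKO2neg and 1 mKO2low cells, and at equal depth in 1 mAG+ cell. The 6 mKO2neg cells with at least 3 of the genes include the deepest of the gate, with 210516 counts, and their median depth was 36308 counts, against 12038 in the 23 mKO2neg cells with none of the 5. The part of depth in this was not tested.

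Gmnn and Cdt1, whose fusion proteins mark opposite phases, had transcripts in the same cell in 3 of the 4 gates. Of 21 mAG+ cells with a Cdt1 count, 20 also had a Gmnn count, while 19 had Gmnn alone and 8 had neither. In mKO2neg 5 cells had both, 5 only Gmnn and 2 only Cdt1. In mKO2low 5 cells had both, 7 only Gmnn and 3 only Cdt1, and in mKO2high 0 had both, 5 only Gmnn and 3 only Cdt1. Since both genes are counted more readily in a deep cell, the pairs were also counted at equal depth, where 5 of 45 mAG+ cells had both, 18 only Gmnn and 3 only Cdt1. In mKO2neg 1 of 43 cells then had both, 4 only Gmnn and 2 only Cdt1, and in mKO2low 0 of 48 had both, 4 only Gmnn and 7 only Cdt1. In mKO2high 0 of 39 had both and 2 had each alone. At this depth the pair was thus seldom counted together outside mAG+, and whether the pairs differ from what the single shares give was not tested.

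**Figure D3:**
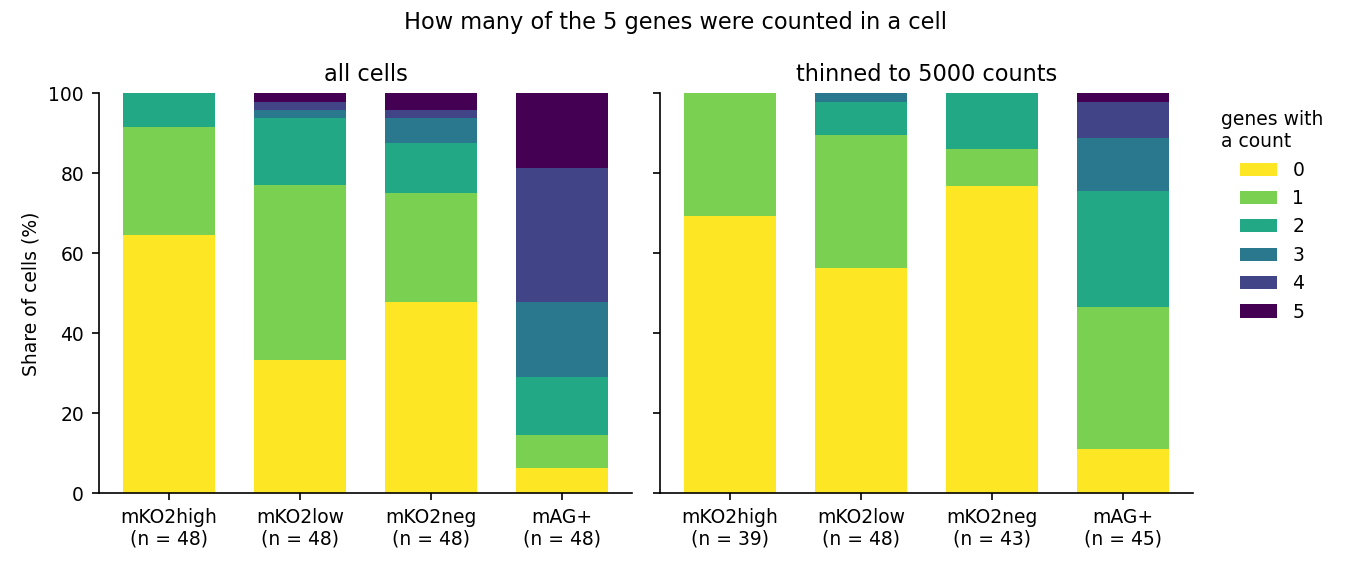
Share of cells in percent (y axis) with a count of 0 to 5 of the genes (colour), by gate (x axis), in all cells (left) and in cells thinned to 5000 counts (right). At least 3 genes were counted in 34 of 48 mAG+ cells, and in 11 of 45 at equal depth, against 6 of 48 and 0 of 43 mKO2neg cells.

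The partners of these proteins differed by role. The 14 subunits of the APC/C were mostly near level: in mAG+ over mKO2neg 3 were at least 2-fold higher and 0 lower, a share near the 21.2% of all genes. Their median log2 ratio was 0.49, and single values ran from 2.07 (0.61 to 4.69) for Anapc15 and 1.78 (1.21 to 2.45) for Anapc4 down to -0.44 (-0.74 to -0.14) for Cdc26 and -0.63 (-1.002 to -0.27) for Cdc16. Their summed level was 1577 CPM in mAG+, against 1207 CPM in mKO2neg, and 1067 CPM in mKO2low, against 1232 CPM in mKO2high. The transcripts of the proteins that switch the complex were far from level. Its ubiquitin-conjugating enzymes, its mitotic coactivator Cdc20 and its checkpoint inhibitors made up a list of 6 genes. All 6 were at least 2-fold higher in mAG+ than in mKO2neg, where 21.2% of all genes were, with a median of 2.08. Ube2c, the enzyme that starts its ubiquitin chains, was at 4.48 (4.14 to 4.87), with 925 CPM in mAG+ and 41.0 CPM in mKO2neg, and Cdc20 at 4.46 (3.94 to 5.12). Ube2s, which extends the chains, was at 1.39 (0.74 to 2.15) and the checkpoint kinase Bub1b at 2.02 (1.64 to 2.44). Between mKO2low and mKO2high, 2 of 4 measured genes of this list were at least 2-fold higher in mKO2low, where 19.6% of all genes were, with a median of 0.33. These were Ube2s, at 1.03 (-0.32 to 2.90), and Cdc20, with 22 counts in mKO2low and 0 in mKO2high. Cdc20 was thus measured through mKO2low alone. The other 2 were lower in mKO2low, by less than 2-fold.

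Known substrates of APC/C with Cdh1 other than geminin had larger ratios. All 13 were at least 2-fold higher in mAG+ than in mKO2neg, where 21.2% of all genes were. One of them, at 0 in mKO2neg, was measured through mAG+ alone. The median log2 ratio was 3.04, or 2.89 with that 1 gene set to its bound against 3 counts. The summed level was 4847 CPM in mAG+, against 677 CPM in mKO2neg. The mitotic kinases Plk1 and Aurka were at 4.93 (4.10 to 6.17) and 4.34 (3.74 to 5.14), and at the other end stood Tk1, a thymidine kinase, at 1.77 (1.53 to 2.02) and the licensing factor Cdc6 at 1.54 (0.80 to 2.45). Gmnn, at 1.30 with all cells, lay below all 13. Without the deepest cells Gmnn was at 2.44, but the substrates were not recomputed without them, so its rank there is not known. For mKO2low over mKO2high 8 of the 13 were measured, and 7 were at least 2-fold higher in mKO2low, where 19.6% of all genes were. Each of the 8 had at most 5 counts in mKO2high and reached 10 counts only through mKO2low. The number past 2-fold is therefore no support for a difference. All 13 summed to 140 CPM in mKO2low and 16.1 CPM in mKO2high. The median of the 8 was 3.24, but 1.30 with the 3 genes at 0 in mKO2high set to that bound.

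The factors that act with Cdt1 in licensing, the ORC and MCM subunits and Cdc6, came next. In mAG+ over mKO2neg 2 of 13 were at least 2-fold higher and 1 lower, with a median of 0.68. Both shares lie below the 21.2% and 14.6% of all genes. Cdc6 at 1.54 and Mcm7 at 1.19 (0.94 to 1.46) were the highest, and Orc4 at -0.64 (-1.09 to -0.20) and Orc1 at -1.82 (-4.24 to -0.32, on 4 counts against 10) the lowest. Between mKO2low and mKO2high, 6 of 12 were at least 2-fold higher in mKO2low, where 19.6% of all genes were, and 1 lower. Among the 6, Cdc6 had 14 counts in mKO2low and 0 in mKO2high, so it was measured through mKO2low alone. The summed level of the list was 814 CPM in mKO2low, against 473 CPM in mKO2high. Of 5 genes listed for the work of the ligase CRL4 with Cdt2, 1 was at least 2-fold higher in mAG+ than in mKO2neg. The gene was Cul4b, at 2.08 (1.35 to 3.01), and the share was again near the 21.2% of all genes. Dtl, the gene of Cdt2, was at 0.87 (0.56 to 1.20), Ddb1 at 0.14 (-0.16 to 0.45) and Cul4a at -0.73 (-1.21 to -0.26). For mKO2low over mKO2high Cul4b, at 1.19 (0.13 to 2.58), was again the 1 of 5 past 2-fold. With 8 counts in mKO2high, it reached 10 counts only through mKO2low.

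Of the partners of Skp2, 1 of 8 was at least 2-fold higher in mAG+ than in mKO2neg: Cks1b, the small subunit that helps Skp2 bind its targets, at 2.56 (2.30 to 2.84), with 470 CPM in mAG+ and 79.6 CPM in mKO2neg. This share too is no higher than that of all genes. The scaffold and enzyme genes stayed closer, with Ube2m at 0.81 (0.32 to 1.35), Cdc34 at -0.16 (-0.48 to 0.16) and Cul1 at -0.46 (-0.72 to -0.19), and 0 of 8 passed 2-fold in mKO2low over mKO2high. The 4 inhibitory targets of Skp2 had no common direction. Cdkn1b, the gene of p27, was at 1.37 (0.63 to 2.25) in mAG+ over mKO2neg, Rbl2 at 0.42 (-0.41 to 1.35), Cdkn1a, the gene of p21, at 0.10 (-0.33 to 0.54) and Cdkn1c, the gene of p57, at -1.38 (-1.77 to -1.02). For mKO2low over mKO2high Cdkn1a was at 2.06 (1.39 to 2.90) and Rbl2 at -1.18 (-2.13 to -0.35). Of the E2F activators, E2f2 was at 2.27 (1.51 to 3.29) in mAG+ over mKO2neg and E2f3 at 0.87 (0.20 to 1.63), and E2f1 had 3 counts in mAG+ and 1 in mKO2neg, and 13 in mKO2low and 11 in mKO2high. The relatives of geminin, Gmnc and Mcidas, and the meiotic relative of Emi1, Fbxo43, had no count in any gate.

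**Figure D4:**
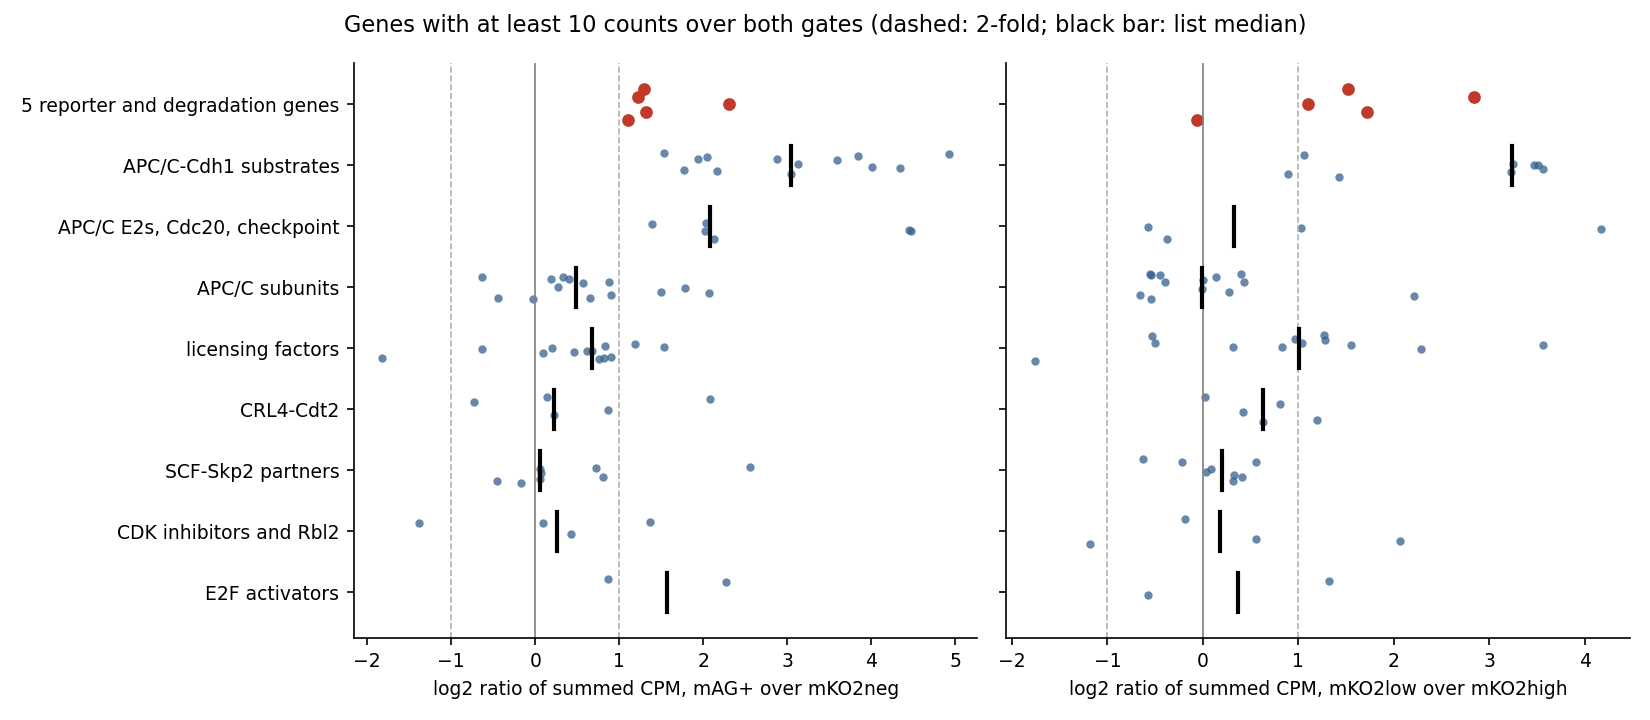
Log2 ratio of summed CPM (x axis) for mAG+ over mKO2neg (left) and mKO2low over mKO2high (right), with a prior count of 1, 1 point per gene with at least 10 counts over both gates, by list (y axis); red points are the 5 genes, black bars list medians and dashed lines 2-fold. In the left panel the substrates centre on 3.04 and the APC/C subunits on 0.49, with the 5 genes between 1.10 and 2.31.

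Within mAG+ the genes were not all alike. Over the 45 mAG+ cells with at least 5000 counts, the Pearson correlation of log2(CPM + 100) with the summed licensing factors was 0.61 for Cdt1, 0.55 for Gmnn, 0.33 for Skp2, 0.16 for Fbxo5 and -0.06 for Fzr1. With the summed substrates of APC/C with Cdh1 it was -0.34 for Cdt1, -0.22 for Skp2, -0.17 for Gmnn, 0.21 for Fbxo5 and 0.24 for Fzr1. Between the genes it was highest for Cdt1 and Skp2, at 0.45, and for Gmnn and Cdt1, at 0.33, while Gmnn and Fbxo5 stood at 0.03. These values describe cells of 1 library with sparse counts, and the weaker of them carry no finding. The correlation with log2 counts of the cell was between -0.05 and 0.17 for the 5 genes there.

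Over the 175 cells of all gates with at least 5000 counts, the genes most like each of the 5 were ranked by the same correlation among 6061 genes counted in at least 40 cells. Gmnn was most like Tk1 (0.64), Spc24 (0.63), Pbk (0.62), Tyms (0.61) and Uhrf1 (0.60). Cdt1 was most like Lig1 (0.59), Prim1 (0.58), Atad2 (0.58), Clspn (0.57) and Tk1 (0.54), of which Lig1 and Prim1 encode a DNA ligase and a primase subunit of replication. Fbxo5 was most like Pbk (0.77), Spc25 (0.74), Birc5 (0.74), Top2a (0.74) and Aurkb (0.73), of which Spc25, Birc5 and Aurkb act at mitotic chromosomes. For Skp2 the closest were Fignl1 (0.53), Cenph (0.40), Rrm1 (0.40), Fbxo5 (0.39) and Pbk (0.39), and for Fzr1 Cip2a (0.42), Jpt1 (0.39), Ccnf (0.39), Mki67 (0.38) and Ccna2 (0.37). These correlations hold the differences between gates and in depth as well as those between cells of a gate.

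**Figure D5:**
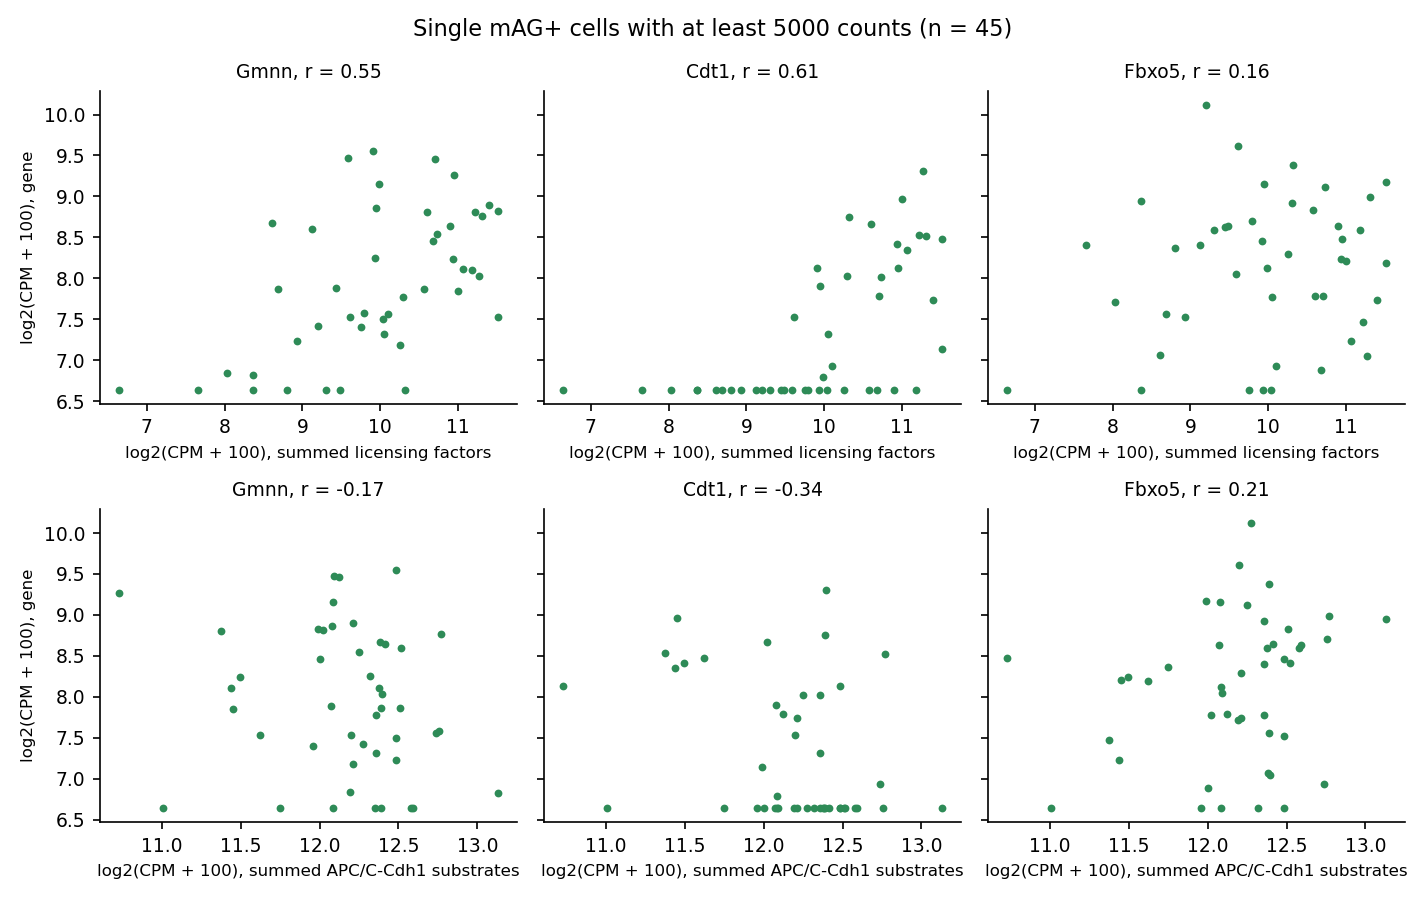
Level of Gmnn, Cdt1 and Fbxo5 (columns, y axis) against the summed licensing factors (upper row, x axis) and the summed substrates of APC/C with Cdh1 (lower row, x axis), all as log2(CPM + 100), in the 45 mAG+ cells with at least 5000 counts; the row of points at the bottom of a panel is cells without a count of the gene. Cdt1 was counted mainly in cells with high licensing factors (r of 0.61), whereas Fbxo5 showed little relation to them (r of 0.16).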

How the data were processed

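The authors deposited 2 tables of raw counts, 1 row per gene ID and 1 column per cell, and a table that gives the library and gate of each of the 192 cells. The submitters' processing notes list HISAT2, HTSeq 0.11.3 and Seurat with the build mm10 but say nothing of what each did. Not given in the sources used here are the annotation release, the strand setting and any molecular identifiers. Per the labels' protocols, a modified Smart-seq2 method with enrichment of cDNA 3' ends was used, so counts were not scaled by gene length.

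By gene ID, 53273 of 53378 rows were found in GENCODE M21 (GRCm38, the assembly of mm10), and 105 rows with 0.222% of the counts were not and entered only the totals. Genes were taken from the row before them in that order, among IDs in the file. This rule, the 5 genes and the lists were chosen with earlier results of these data known. The cell table's mKO2hi is called mKO2high. No cell was left out, and doublets were not called, since cells were handled singly.

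Counts were summed per gate and scaled to its total. Log2 ratios used a prior count of 1, and their intervals are exact conditional binomial 95% intervals. Shares have exact Clopper-Pearson 95% intervals. The floor of 3 counts equals 3.21 CPM for mKO2high, 1.76 for mKO2low, 1.86 for mKO2neg and 1.07 for mAG+. Named besides the 5 genes were the 2 highest and 2 lowest of each list by mAG+ over mKO2neg, among genes with at least 10 counts over both gates, and the 5 most alike. Names outside this rule (Slamf1, Flt3, Ly6g, E2f1, Gmnc, Mcidas and Fbxo43) come from the same lists and were picked after their values were seen. The code for reading rows and forming ratios was run on simulated sums stored 1 row early. Such a run can show an error in the code, but not whether the deposited labels are out of step. The simulated sums also held no spread between cells. Python 3.11.15, numpy, scipy 1.17.1, edgeR 4.0.16 and DESeq2 1.42.0 were used, the last 2 for scaling factors only.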

Additional observations from a re-analysis of the deposited data

Results flagged for a closer look

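The 105 rows whose ID is not in GENCODE M21 held 15621 counts, above the 3 counts taken as the floor of a count of 0. They lie outside every comparison above, since the gene before or after them in order is unknown. Whether any of them holds counts of a gene described here was not tested.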

How the results depend on the processing

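Of 90 alternative log2 ratios of the 5 genes within a library, read from the preceding row, 75 stayed inside the counting interval. Where the main ratio was past 2-fold, 0 changed sign. Fzr1 in mKO2low over mKO2high, at -0.06 with all cells, did change sign. It was at 0.36 without the cell with most counts of the gene in each gate. The 2 other scalings, 2 other prior counts and the filter on cells each left all 10 inside. With equal weight for each cell, mAG+ over mKO2neg gave 2.59 for Gmnn, 1.72 for Cdt1, 3.68 for Fbxo5 and 1.77 for Fzr1, and mKO2low over mKO2high gave 1.46 for Cdt1. At 5000 counts per cell mAG+ over mKO2neg gave 2.49 for Gmnn, 0.75 for Cdt1, 2.41 for Skp2 and 2.71 for Fzr1, and mKO2low over mKO2high 1.08 for Cdt1, with 10 counts of Skp2 in mAG+ and 1 in mKO2neg. Without the cell with most counts of the gene in each gate, mAG+ over mKO2neg was 2.44 for Gmnn and 4.09 for Fbxo5, and mKO2low over mKO2high 2.41 for Gmnn. Without the deepest cells Gmnn was at 2.44 and Fbxo5 at 4.26 in mAG+ over mKO2neg. Between libraries, in alternatives chosen after seeing the data, mKO2neg over mKO2low without the deepest cells was -0.70 for Gmnn and -0.12 for Fbxo5. At 5000 counts per cell it was -0.51 for Gmnn, 0.62 for Fbxo5, -1.48 for Skp2 and -1.35 for Fzr1, and mAG+ over mKO2high was 1.63 for Cdt1 and 3.31 for Fbxo5. Read from the row with its own ID, a gene takes another gene's counts: mAG+ over mKO2neg was then 0.36 for Gmnn, -0.97 for Cdt1, -0.70 for Fbxo5, -0.23 for Skp2 and 0.21 for Fzr1, and mKO2low over mKO2high -0.20 for Gmnn, -0.37 for Cdt1, -3.80 for Skp2 and 1.51 for Fzr1.

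Of 20 shares of cells, 9 left their interval at equal depth and 0 with at least 2 counts. Genes at least 2-fold higher numbered 2569 in mAG+ over mKO2neg (4010 without the filter, 912 at equal depth) and 2136 in mKO2low over mKO2high (3490 and 661). Those lower numbered 1772 (3066 and 766) and 1630 (3617 and 593). In mKO2neg over mKO2low they were 1743 higher (3507 and 643) and 1902 lower (3066 and 626), and in mAG+ over mKO2high 3105 higher (4669 and 1012) and 2024 lower (3744 and 907). Equal depth leaves fewer genes tested. Other causes were not tested. No paired analysis was possible because each gate is 1 sample.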
